A study of Mus musculus with 9 samples.

Results

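The T-cell receptor loci of the mouse were examined in H3K27ac ChIP-seq of naive CD8+ T cells. The loci were taken as 3 fixed windows of the mm9 genome: Tcra with the embedded Tcrd genes (chr14:53000000-54900000), Tcrb (chr6:40800000-41550000) and Tcrg (chr13:19200000-19500000). All islands sharing at least 1 bp with a window were its members. An island is a stretch in which the peak caller found more H3K27ac reads than background, and its count is the number of reads in it. The windows held 105 of the 65563 islands of the WT list and 241 of the 82213 islands of the dKO list. The label holds for Tcra and Tcrb by their content, since the constant genes Trac, Trbc1 and Trbc2 each lay inside an island of both lists.

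The cells were GFP+ TCRβ+ CD62Lhi CD44lo-med CD8+ splenic T cells sorted from 4 WT and 3 dKO samples, with 1 input sample per genotype that was not used here. Both genotypes carried the hCD2-Cre transgene and the Rosa26-GFP reporter allele. WT mice were Tcf7+/+Lef1+/+ and dKO mice were Tcf7fl/fl Lef1fl/fl, so that dKO cells lacked the transcription factors Tcf1 and Lef1. Deletion by hCD2-Cre comes late, mostly in T cells that have already rearranged their receptor genes and left the thymus, and GFP marked the cells in which Cre had acted; per the methods the mice were 6 to 12 weeks old, of either sex and on the C57BL/6 background. The replicates of a genotype were pooled by the authors before islands were called, so each genotype is 1 list. There is therefore no replicate spread and no test: the 95% intervals below are Wilson intervals and take in no more than counting error.

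In all, 82668007 counts lay in WT islands and 57665047 in dKO islands. Every log2 ratio below is dKO over WT after division by these totals, and a ratio of at least 1.5 either way is called a change in size. The mean depth was 210.5 counts per covered kb in WT and 134.3 in dKO, and an island with no partner has no count in the other list rather than a count of 0. Because wider islands hold more reads, each ratio of counts is also given per covered kb.

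A T-cell receptor is assembled from separate variable (V), diversity (D) and joining (J) segments, which are cut and joined in the thymus in front of a constant (C) gene. The joining usually removes the DNA between the chosen segments. Tcra and Tcrb encode the αβ receptor of CD8+ T cells, whereas Tcrg and Tcrd encode the receptor of γδ T cells. The Tcrd genes lie between the V and J segments of Tcra, and most Vα-to-Jα joining removes them. H3K27ac marks active promoters and enhancers, and enhancers near the constant genes drive both rearrangement and transcription of these loci. In bulk cells, fewer cells with a mark and less mark per cell cannot be told apart, nor can fewer copies of a segment per cell and less acetylation per copy.

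Sequences are shown for the places on which the results turn. The first is a 180-base stretch downstream of Trac, chr14:54847105-54847284 on the + strand of mm9. It lay inside the island with most counts of the loci and holds the letters of the known Tcra 3′ enhancer core. Capitals mark TGACGTCA, the cyclic AMP response element, and CTTTGAA, core letters bound by Tcf1 and Lef1. The others are the 150 bases before the annotated start of the V segments Trbv13-1 (chr6:41065885-41066034), Trbv13-2 (chr6:41071266-41071415), Trbv13-3 (chr6:41079996-41080145) and Trav14-1 (chr14:54173582-54173731), all on the + strand, which lie under or beside V islands described further on. Capitals there mark TGACATCA, or TGATGTCA where it is read on the other strand, letters shared by promoters of Trbv segments.
Tcra downstream element: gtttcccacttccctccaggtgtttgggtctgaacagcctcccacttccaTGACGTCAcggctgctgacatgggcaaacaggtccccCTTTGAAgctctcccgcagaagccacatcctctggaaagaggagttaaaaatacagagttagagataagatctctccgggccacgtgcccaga
Trbv13-1: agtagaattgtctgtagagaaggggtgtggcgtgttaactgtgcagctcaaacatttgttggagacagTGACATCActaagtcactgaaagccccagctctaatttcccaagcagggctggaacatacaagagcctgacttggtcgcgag
Trbv13-2: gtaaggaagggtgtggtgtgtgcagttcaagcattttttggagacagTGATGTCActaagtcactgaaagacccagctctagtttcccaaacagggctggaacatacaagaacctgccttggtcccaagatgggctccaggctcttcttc
Trbv13-3: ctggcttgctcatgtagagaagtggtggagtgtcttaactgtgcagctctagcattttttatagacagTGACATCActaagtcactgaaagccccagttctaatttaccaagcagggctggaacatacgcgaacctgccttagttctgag
Trav14-1: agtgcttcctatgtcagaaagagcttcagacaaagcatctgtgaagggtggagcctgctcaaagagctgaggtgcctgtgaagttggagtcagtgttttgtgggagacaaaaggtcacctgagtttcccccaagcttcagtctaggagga
The 180-base stretch was placed on the first TGACGTCA downstream of Trac, so that match was fixed by the choice of stretch. TGACGTCA was found once in the 10 kb downstream of Trac, 4383 bp from its end, and CTTTGAA at 2 places there. The shares that follow are for windows of 180 bases and give no background for the 10 kb. Over 180-base windows at the centres of all 76633 merged regions, 0.119% held TGACGTCA and 4.21% held CTTTGAA on either strand. TGACATCA was found before 8 of the 23 annotated Trbv segments (34.8%), before 3 of the 114 V segments of the Tcra window (2.63%) and before 2.21% of 22380 protein-coding genes. The 150 bases before Trbv13-3 and Trbv13-1 were identical at 125 of 152 aligned positions (82.2%). None of the 3 motifs was found before Trav14-1. A match is a description of letters and not a measured binding site.

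Islands of both lists were merged where they shared at least 1 bp, which gave 237 regions in the 3 windows. Of these, 88 had an island in both lists, 5 (2.11%) in the WT list only and 144 (60.8%) in the dKO list only. Over all 76633 merged regions, 28.1% had an island in the dKO list only and 12.8% in the WT list only. The excess of dKO-only regions was largest in Tcra, with 86 of 124 regions (69.4%), followed by Tcrb with 45 of 78 (57.7%) and Tcrg with 13 of 35 (37.1%). The WT-only regions were 1 in Tcra, 3 in Tcrb and 1 in Tcrg. They held between 139 and 402 counts, and none lay within 1 kb of a V segment.

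The covered length was greater in dKO in each window. In Tcra, WT islands covered 194.2 kb and dKO islands 410 kb, 2.11 times as much. In Tcrb the covered length was 135.6 kb in WT and 225.8 kb in dKO, 1.67 times as much. In Tcrg it was 80 kb in WT and 136.6 kb in dKO, 1.71 times as much. Over the whole lists the covered length was only 1.09 times greater in dKO, and the number of islands 1.25 times greater.

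Scaled counts were higher in dKO in each window, by the 1.5 ratio in Tcra and Tcrg only. The Tcra ratio was short of it, at a log2 of 0.57, when islands under 3 counts per 1e6 of the list total were left out. Tcra held 76521 counts in WT and 82985 in dKO, a log2 ratio of 0.64 (0.62 to 0.65). Tcrb held 42752 counts in WT and 36837 in dKO, a log2 ratio of 0.30 (0.28 to 0.32). Tcrg held 12396 counts in WT and 17239 in dKO, a log2 ratio of 0.995 (0.962 to 1.03). Per covered kb the log2 ratios were -0.44 in Tcra, -0.43 in Tcrb and 0.22 in Tcrg, so the direction for Tcra and Tcrb turned once width was taken into account. The 144 dKO-only regions had a median of 161.5 counts and 101.6 counts per kb. Over all 21511 dKO-only regions the medians were 175 counts and 87.5 counts per kb, and over all dKO islands 292 counts and 98.3 counts per kb.

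Among the 88 regions with islands in both lists, 28 (31.8%) had scaled counts at least 1.5 times higher in dKO, against 11.1% of 45322 such regions over the genome. Another 4 (4.55%) were at least 1.5 times higher in WT, against 14.6% over the genome. Per covered kb the counts were 6 higher in dKO and 1 higher in WT, against backgrounds of 1.17% and 4.51%. The median log2 ratio of counts was 0.29 in the windows and -0.07 over all regions in both lists, and per kb it was 0.09 and -0.02. Of the 88 regions, 54 were wider in dKO, 19 narrower and 15 of equal width.

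**Figure D1:**
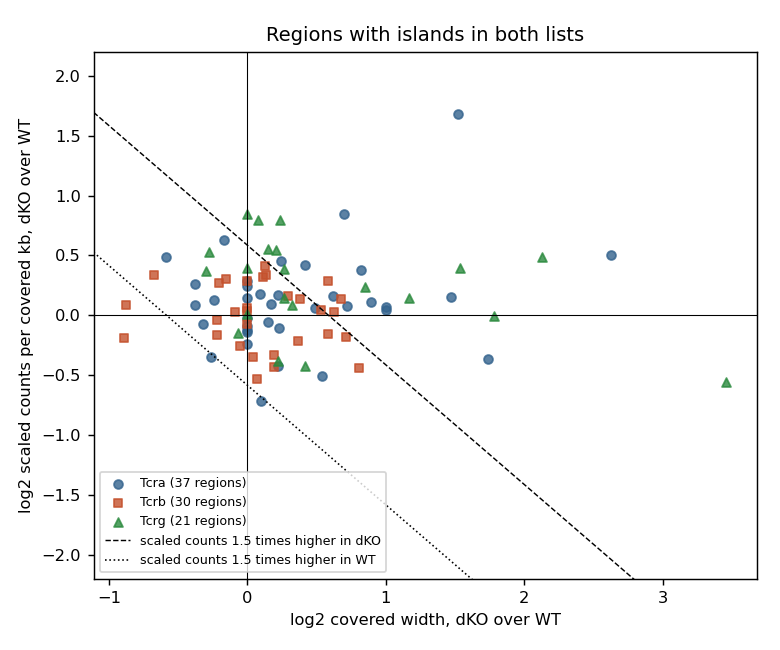
Each point is 1 of the 88 merged regions with islands in both lists, with the log2 ratio of covered width (dKO over WT) on the horizontal axis and the log2 ratio of scaled counts per covered kb on the vertical axis; symbols give the window. Points beyond the dashed line are the 28 regions called higher in dKO by counts, 27 of them wider in dKO, and points below the dotted line are the 4 called higher in WT.

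The constant end of Tcra held the most counts of the 3 windows, though not the highest depth per kb. Trac encodes the constant part of the α chain, and the island over it was the 3rd of 65563 by counts in WT and the 5th of 82213 in dKO. In WT it spanned chr14:54778401-54864000, 85.6 kb with 55889 counts (652.9 per kb). In dKO it spanned chr14:54761801-54862000, 100.2 kb with 43045 counts (429.6 per kb). It covered most of the Traj joining segments in WT and all of them in dKO, Trac itself and part of Dad1, the neighbouring gene for a subunit of the oligosaccharyltransferase. The island reached 61.8 kb upstream of Trac in WT and 78.4 kb in dKO, whereas it ended 21.2 kb downstream of Trac in WT and 19.2 kb in dKO. The dKO island was thus wider at its upstream edge, toward Tcrd.

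The merged region around Trac, chr14:54761801-54875800, held 59610 WT counts and 45345 dKO counts. Its log2 ratio was 0.13 (0.11 to 0.14) by counts and -0.10 per covered kb, both short of the 1.5 ratio. The only other region downstream, chr14:54876601-54898200 over Abhd4, held 3598 WT counts and 2305 dKO counts (log2 -0.12, -0.20 to -0.05, but 0.26 per kb). Islands within 10 kb of Trac held 73.0% (72.7 to 73.4) of the window's counts in WT and 51.9% (51.5 to 52.2) in dKO. The constant end thus differed by less than the 1.5 ratio after scaling, while its share of the window was lower in dKO, which had more islands elsewhere.

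The Tcrd stretch, from Trdv1 to the base before Traj61, differed most by the ratio of covered length. It is 273.5 kb long and 88.2% of its 50-base sequences occur once in the genome, so most of it was open to unique mapping. WT islands covered 4.8 kb of it (1.76%) and dKO islands 102.1 kb (37.3%), a 21.3-fold greater length. By midpoint, 2 islands lay in it in WT, with 346 and 352 counts, and 36 in dKO, with 74 to 2224 counts and 63.9 to 276.2 counts per kb. Acetylation of the stretch was therefore spread over many islands of moderate depth in dKO and nearly without islands in WT.

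The largest increase in Tcra lay over Trdd2 and Trdj1, a diversity and a joining segment of the δ chain (chr14:54740001-54749200). WT had 346 counts there in an island of 3.2 kb that reached neither segment, and dKO had 2224 in 9.2 kb. The log2 ratio was 3.20 (3.04 to 3.37) by counts and 1.68 per covered kb, the largest increase of Tcra on both scales. The second largest by counts, over Trdv1 (chr14:54497801-54505200), held 205 counts in WT and 1252 in dKO (log2 3.13, 2.92 to 3.34), most of it from width, with 0.51 per kb. The WT island of that region did not come within 1 kb of Trdv1. A region over Trdv2-2 (chr14:54579601-54582200) held 352 counts in WT and 718 in dKO (log2 1.55, 1.36 to 1.73, and 0.85 per kb).

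The dKO-only region with most counts in the loci lay 153.4 kb upstream of Trac with no annotated gene (chr14:54676601-54686800, 1961 counts over 10.2 kb). Another, over Trdj2 (chr14:54756001-54759600), held 756 counts over 3.6 kb. Trdc, the constant gene of the δ chain, has no entry in the mm9 annotation used here, and the order of RefSeq genes places it between Trdj2 and Trdv5. That interval of 11.8 kb was 81.4% covered by 2 dKO islands, the Trdj2 one and the upstream edge of the Trac island, and by no WT island.

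**Figure D2:**
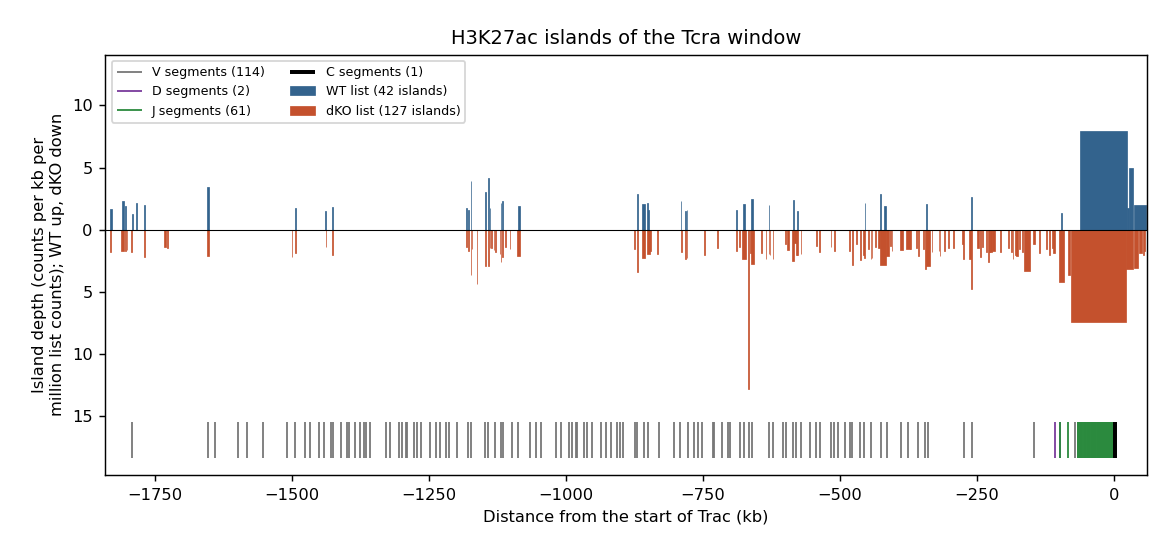
Islands of the Tcra window, with distance from the start of Trac in kb on the horizontal axis and depth (CPM per kb) on the vertical axis, where CPM is counts per list total times 1e6, WT upward and dKO downward; ticks below mark V, D, J and C segments. The wide block at 0 is the Trac island of each list, the dKO bars between it and about 340 kb upstream are the Tcrd stretch, and the tallest dKO bar, 12.8, is the Trav14-1 island without a WT partner.

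Across the V segments of the Tcra window, islands lay near fewer segments in WT. Of 114 annotated V segments, 21 were within 1 kb of an island in both lists, 1 (Trav9d-1) in WT only, 25 in dKO only and 67 in neither. The V segments named here for their island and not as part of a region with most counts or most changed (Trav9d-1, Trbv17, Trbv20, Trbv26 and Trbv30) were chosen after their values were seen, as was the grouping of V segments by position. The segments near no island were mostly hard to reach by unique mapping: their median share of unique 50-base sequences was 2.46%, against 61.9% for segments with islands in both lists and 73.1% for those with a dKO island only. The proximal 38 V segments, from Trav6-5 to Trdv5, held 23 of the 25 dKO-only ones, beside 6 in both lists and 9 in neither. The distal 38 held 5 in both lists, 1 in WT only and 32 in neither, and the middle 38 held 10 in both lists, 2 in dKO only and 26 in neither. Median uniqueness was 4.14% in the distal, 20.9% in the middle and 69.6% in the proximal group, so the distal and middle groups were less open to measurement in both lists.

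The stretch from Trav1 to the base before Trdv1 was 4.29% covered in WT and 12.3% in dKO. Its shared region with most counts lay over Trav13-5, near the proximal end (chr14:54413801-54424400), with 1086 WT counts and 1736 dKO counts (log2 1.20, 1.09 to 1.31, and 0.38 per kb). A region over Trav13-1 (chr14:54162201-54169400) held 452 WT counts and 969 dKO counts (log2 1.62, 1.46 to 1.78, and 0.15 per kb). Trav2, near the distal end, went the other way (chr14:53186201-53189200), with 799 WT counts and 364 dKO counts. Its log2 ratio was -0.61 (-0.79 to -0.44) by counts and -0.71 per covered kb, the largest decrease of Tcra on both scales. An intergenic region, chr14:53658201-53660600, held 354 WT counts and 162 dKO counts (log2 -0.61, -0.88 to -0.34, and -0.35 per kb). Higher and lower V regions thus stood side by side in 1 locus, with these higher ones nearer to Trac. Of the 10 protein-coding genes of the window that are no receptor segments, 6 were within 1 kb of an island in both lists, 1 in dKO only and 3 in neither. They include olfactory receptor genes at the distal end, of which Olfr1510 held 908 WT counts and 551 dKO counts and Olfr1511 361 and 205.

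At the constant end of Tcrb the counts were lower in dKO. Trbc1 and Trbc2 encode alternative constant parts of the β chain, each behind its own D and J segments, and 1 island covered both. In WT it spanned chr6:41484001-41515600, 31.6 kb with 23561 counts (745.6 per kb), the highest depth of any WT island in the windows. In dKO it spanned chr6:41480601-41515600, 35 kb with 13694 counts (391.3 per kb). It took in Trbv31, the V segment behind Trbc2 that lies in the opposite orientation, and ended 17.4 kb downstream of Trbc2 at the same base in both lists. The merged region, chr6:41480601-41515600, held 24241 counts in WT, with a second island of 680 counts that ended at the first base of Trbd1, and 13694 in dKO. Its log2 ratio was -0.30 (-0.33 to -0.27) by counts and -0.35 per kb, a lower dKO depth at nearly equal width and short of the 1.5 ratio. Islands within 10 kb of the constant genes held 56.7% (56.2 to 57.2) of window counts in WT and 40.1% (39.6 to 40.6) in dKO.

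Behind the constant genes, a region 31 kb past Trbc2 (chr6:41529201-41532000) held 443 WT counts and 146 dKO counts. This was the largest decrease of Tcrb by counts (log2 -1.08, -1.35 to -0.81), but it came mostly from width, with -0.19 per kb. The WT-only region with most counts of the loci, 402, lay 47.6 kb past Trbc2 (chr6:41545801-41549400).

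The stretch between Trbv23 and Trbd1 was the Tcrb counterpart of the Tcrd stretch by its ratio of covered length. It also holds the forward V segments Trbv26, Trbv29 and Trbv30. From the base after Trbv23 to the base before Trbd1, 316.7 kb with trypsin genes of the pancreas between the receptor segments, WT islands covered 5.07 kb (1.60%) and dKO islands 59.1 kb (18.7%). That is 11.6 times as much. By midpoint, 2 WT islands and 26 dKO islands lay there; the WT ones, with 975 and 680 counts, sat at the ends, over Trbv23 and up to the first base of Trbd1. The dKO islands held 63 to 1087 counts. The one with most counts, over the trypsin gene Prss2 (chr6:41471401-41480000), held 1087 counts over 8.6 kb and lay 8.22 kb upstream of Trbc1. The next was the Trbv23 island, with 931 counts, followed by one over Trbv29 (chr6:41219401-41225200) with 610 counts over 5.8 kb. Of the 15 protein-coding genes of the window that are no receptor segments, 2 (Moxd2 and Prss58) were within 1 kb of an island in both lists, 5 in dKO only and 8 in neither. For neither this window nor Tcra was the share of dKO-only genes over the genome computed, so these gene counts have no background.

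Of the 23 V segments of Tcrb, 17 were within 1 kb of an island in both lists and 6 in dKO only: Trbv13-3, Trbv17, Trbv20, Trbv26, Trbv29 and Trbv30. The last 3 lie in the stretch just described. Between Trbv2 and Trbv23 the covered share was 32.1% in WT and 44.6% in dKO. The V region with most counts, over Trbv12-2 and Trbv13-2 (chr6:41067801-41072200), held 2431 WT counts over 4 kb and 1230 dKO counts over 4.2 kb. Its log2 ratio was -0.46 (-0.56 to -0.36), and -0.53 per kb. Its neighbour over Trbv12-1 and Trbv13-1 (chr6:41062201-41067000) held 1142 WT counts and 675 dKO counts (log2 -0.24, -0.38 to -0.10, and -0.43 per kb). Trbv21 (chr6:41147801-41153600) held 1490 WT counts and 842 dKO counts (log2 -0.30, -0.43 to -0.18). Trbv23 (chr6:41164801-41170200) held 975 and 931 (log2 0.45, 0.32 to 0.58), and Trbv1 with Moxd2 and Prss58 (chr6:40837001-40845600) held 1309 and 1307 (log2 0.52, 0.41 to 0.63). None of these 5 V regions reached the 1.5 ratio, by counts or per kb.

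**Figure D3:**
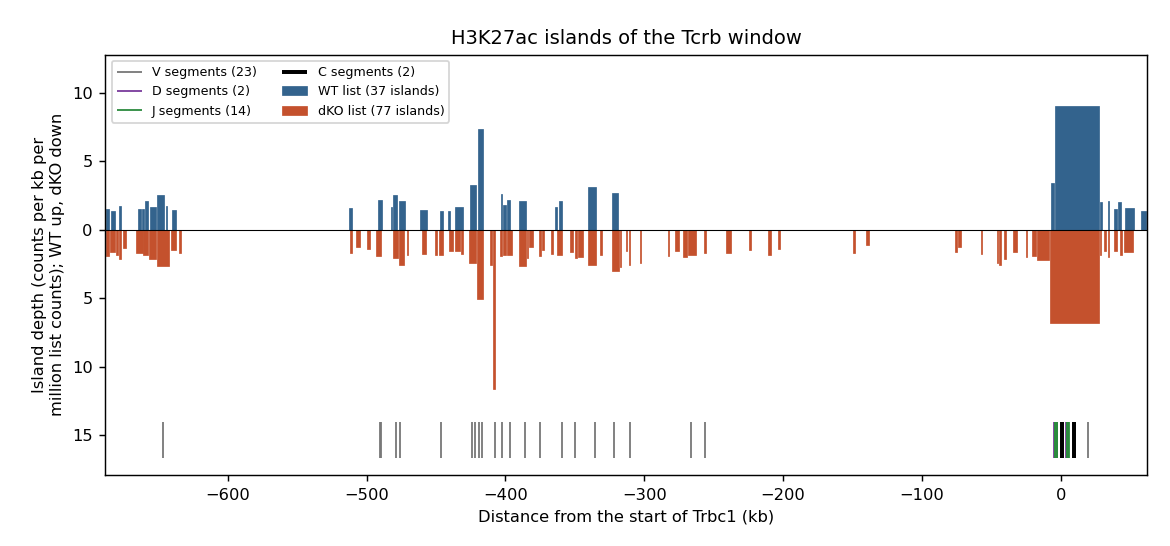
Islands of the Tcrb window, with distance from the start of Trbc1 in kb on the horizontal axis and depth (CPM per kb) on the vertical axis, WT upward and dKO downward; ticks mark gene segments. The block at 0 is the island over both constant genes, the stretch from about 300 kb upstream to it has dKO bars and almost no WT bar, and the tallest dKO bar, 11.6, is the Trbv13-3 island.

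A pair of V segments stood apart from all others. Over Trav14-1, a segment of the family formerly called Vα2, the dKO list held a 2 kb island with 1476 counts, 738 per kb (chr14:54173401-54175400). Over Trbv13-3, for which RefSeq gives the synonym Tcrb-V8.1, it held a 1.8 kb island with 1207 counts, 670.6 per kb (chr6:41079001-41080800). Neither had a WT island: the nearest ones lay 6.8 and 3.6 kb away from the Trav14-1 island and 6.8 and 4.2 kb away from the Trbv13-3 island. By counts per kb these were the 2nd and the 3rd of all 21511 dKO-only regions of the genome, whereas the next in the windows ranked 23rd. Both exceeded the depth of the dKO islands over Trac and Trbc1, 429.6 and 391.3 per kb. The sequence around both was mostly unique, 81.4% for Trav14-1 and 99.7% for Trbv13-3, and the sister segments Trbv13-1 and Trbv13-2, whose upstream letters are printed above, had islands in both lists.

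The study's methods also name P14 mice, which carry a transgene for a receptor made with a Vα2 and a Tcrb-V8.1 segment, for other experiments in both genotypes. The labels of the samples used here name no receptor transgene. Rearranged copies map to the germline segments they came from, and whether any pooled sample held such copies was not tested. The 2 V islands lie over segments of these families. The stretches before Traj61 and before Trbd1 had the largest dKO to WT ratios of covered length among the 19 stretches. These stretches lie mostly between segments. Whether a receptor transgene in any pooled sample bears on them, by mapping or in another way, was not tested either.

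**Figure D4:**
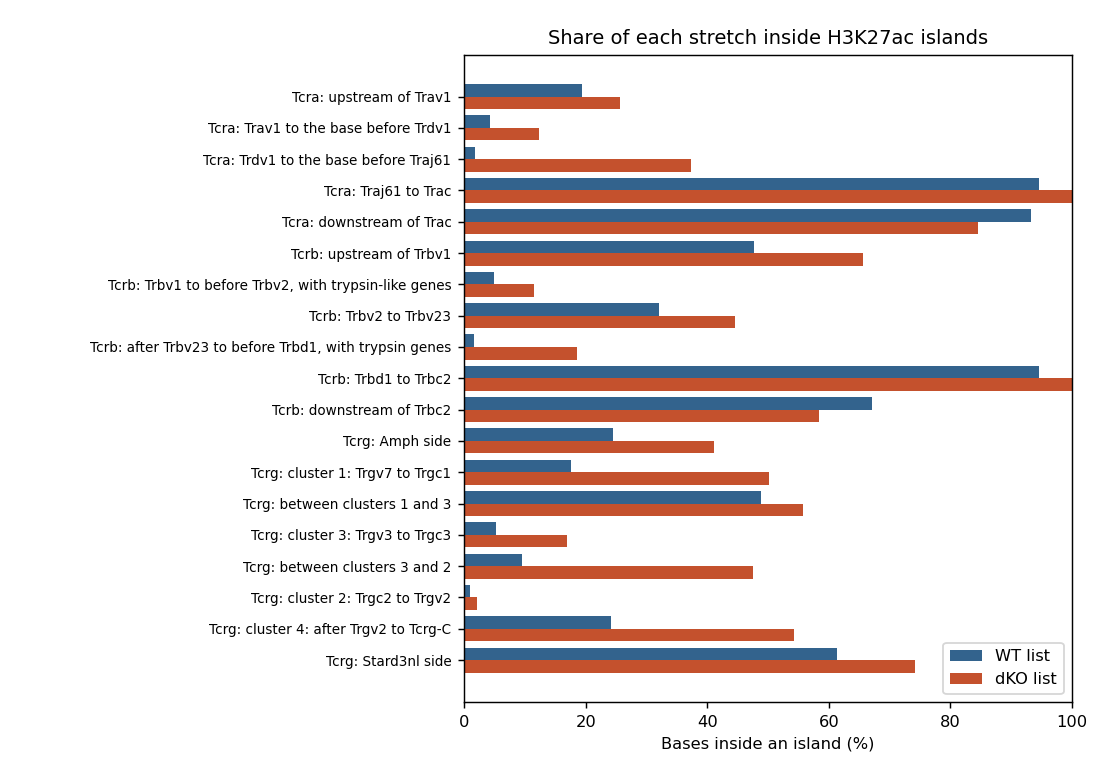
Bars give the percentage of bases inside islands of the WT and the dKO list for 19 stretches of the 3 windows, in order along each locus. The widest relative gaps are in the Tcrd stretch, at 1.76% and 37.3%, and before Trbd1, at 1.60% and 18.7%, while Traj61 to Trac and Trbd1 to Trbc2 are above 90% in both lists.

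Tcrg had no domain like those over Trac and Trbc1. Its 4 clusters each hold a constant gene for the γ chain, and its islands had a median depth of 141.6 counts per kb in WT and 110.8 in dKO. Of the 4 constant genes, 2 had islands within 1 kb in both lists, Trgc1 and Tcrg-C, the constant gene behind Trgj4, and 2, Trgc2 and Trgc3, had none. The island over Trgc1 held 182 WT counts and 167 dKO counts. By counts summed over both lists the first region, with 3177, reached from the end of Tcrg-C into the next gene, Stard3nl (chr13:19444001-19454600), just ahead of that at the far end of Stard3nl with 3171, which was higher in WT. In the first of these WT had 1460 counts in 9.2 kb and dKO 1717 in 10.6 kb. The log2 ratio was 0.75 (0.65 to 0.85), and 0.55 per kb. The WT island began at chr13:19444401, past the end of Tcrg-C at 19444212, so only dKO islands overlapped the gene itself. A dKO-only region inside Tcrg-C (chr13:19441801-19443400) held 197 counts. Islands within 10 kb of the constant genes held 28.4% (27.6 to 29.2) of window counts in WT and 30.8% (30.1 to 31.5) in dKO, so the lower dKO share seen at Tcra and Tcrb was not seen here. With a border of 20 kb the shares were 43.6% in WT and 59.6% in dKO.

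Most γ V segments lay near islands in both lists, and the named regions over them were wider or deeper in dKO. Of 7 V segments, 6 had an island within 1 kb in both lists and 1, Trgv5, in dKO only. The region over Trgv4, Trgv6 and Trgv5 (chr13:19276601-19286200) had 335 WT counts in 2.2 kb and 1426 dKO counts in 9.6 kb. The log2 ratio by counts was 2.61 (2.44 to 2.78), and that per kb 0.48. The region over Trgv7 (chr13:19263001-19271000) held 999 WT counts and 1138 dKO counts (log2 0.71, 0.59 to 0.83, and 0.56 per kb). By counts the largest increase was a region 7.74 kb past Trgc3 (chr13:19363001-19365200), with 59 WT counts in 0.2 kb and 308 dKO counts in 2.2 kb. Its log2 ratio was 2.90 (2.50 to 3.30), but -0.56 per kb, since the WT island was 1 window wide. By counts per kb the largest increase was a region 1.71 kb past Trgc1 (chr13:19310201-19314400), with 682 WT counts and 853 dKO counts over 4.2 kb each, log2 0.84 (0.70 to 0.99) on both scales.

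Of the 21 Tcrg regions with islands in both lists, 12 were called higher in dKO by counts and 0 higher in WT. Over the genome the shares were 11.1% and 14.6%. Per kb the numbers were 3 and 0, against 1.17% and 4.51% over the genome. The covered share of cluster 1, from Trgv7 to Trgc1, was 17.6% in WT and 50.2% in dKO, and that between clusters 3 and 2 was 9.60% and 47.5%. On the flanks, a region that began in the end of Amph and lay mostly between Amph and Trgv7 (chr13:19240801-19259400) held 735 WT counts and 1955 dKO counts, log2 1.93 (1.81 to 2.05) and 0.39 per kb. The region at the far end of Stard3nl (chr13:19481001-19488200) held 1950 WT counts and 1221 dKO counts, log2 -0.16 (-0.26 to -0.05) and -0.38 per kb. Higher dKO counts were thus found beyond the receptor genes on the Amph side, but not at the promoter end of Stard3nl.

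**Figure D5:**
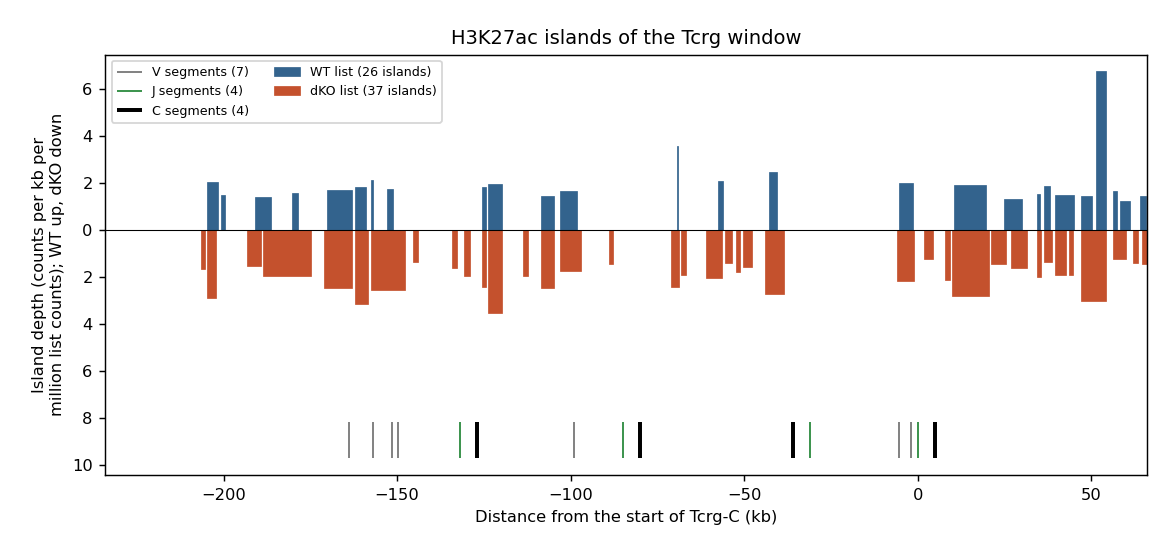
Islands of the Tcrg window, with distance from the start of Tcrg-C in kb on the horizontal axis and depth (CPM per kb) on the vertical axis, WT upward and dKO downward; ticks mark V, J and C segments. The highest WT bar, 6.77, is the Stard3nl island at the right, and dKO bars are wider over most segments and reach at most 3.52.

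Marker genes were read over gene body and promoter, where an island is not expression. All 11 markers of αβ CD8+ T cells had islands in both lists, with 1 (Cd247) called higher in dKO by counts and 0 lower, against 7.26% and 9.56% of 14786 protein-coding genes. Of these markers, Trac, Trbc1 and Trbc2 lie in the windows themselves and are no separate reading of cell type. Cd3e, Cd3d and Cd3g carried the same counts, as did Cd8a and Cd8b1, and Trbc1 and Trbc2, so the 11 are not independent. Of the 5 markers of γδ T cells, which use Tcrg and Tcrd, all had islands in both lists and 2, Zbtb16 and Blk, were called higher in dKO by counts and 0 per kb. Zbtb16, a regulator of innate-like T cells, held 8336 WT counts over 57.8 kb and 14926 dKO counts over 139.8 kb, and Blk, a Src-family kinase, held 1591 and 2766. The summed level of the γδ list was 406.9 CPM in WT and 612.0 CPM in dKO, and its part in the Tcrg and Tcrd values was not tested. The 3 CD4 T cell markers had islands in both lists, with 1 called higher. So had the 6 B cell markers, with 2 higher and 1 lower, and the 5 myeloid markers, with 0 either way. Of the 4 NK cell markers, 3 had islands in both lists, with 1 lower, and Ncr1 had none in either. The calls per kb were 1 higher in the αβ list, 1 lower in the NK list and 0 in the other lists.

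Genes of the T-cell receptor pathway outside the windows were read in the same way. Of 30 genes, each with islands in WT and in dKO, 4 were called higher in dKO by counts (Cd247, Ptcra, Cd4 and Rag2) and 1 lower (Ptpn22), against the same 7.26% and 9.56%. Per kb 1 was called higher (Cd247) and 2 lower (Ptcra and Ptpn22), against 0.521% and 11.6%. The median log2 ratio of the 30 was 0.00 by counts and -0.10 per kb, and that of the protein-coding genes -0.06 and -0.16. The shared region of Cd3e, Cd3d and Cd3g, which encode the CD3 chains that carry the receptor to the surface, held 20555 WT counts and 14641 dKO counts (log2 0.03, -0.00 to 0.06). Cd247, the gene of the CD3 ζ chain, was the exception, with 30303 WT counts over 86.8 kb and 47479 dKO counts over 90.4 kb. Its log2 ratio was 1.17 (1.15 to 1.19) and 1.11 per kb, so here depth and not width differed. Ptcra, the gene of the pre-T-cell receptor α chain, had the highest ratio by counts (1.22, 1.13 to 1.31), with 1505 WT counts over 4.6 kb and 2448 over 20.8 kb in dKO, but -0.96 per kb. The third, Rag2, whose product cuts receptor DNA in the thymus, held 470 and 504 counts (0.62, 0.44 to 0.80). Among the lowest were Ptpn22, a phosphatase gene that dampens receptor signalling (20611 and 9017 counts, log2 -0.67, -0.71 to -0.64), and Ptprc, the CD45 gene (20462 and 10161, log2 -0.49, -0.52 to -0.46).

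The immunoglobulin loci, built in the same way but joined in B cells, served for comparison. Igh (chr12:114509484-117238672) held 172 WT islands and 244 dKO islands over 551.8 and 613.4 kb, 1.11 times the length in dKO. Its log2 ratio of counts was 0.24 (0.23 to 0.25), 0.09 per kb, and 31.5% of its 238 merged regions were dKO only, close to the 28.1% of all regions and below each T-cell receptor window. Of the 142 Igh regions with islands in both lists, 14 were called higher in dKO by counts and 10 higher in WT. Per kb the numbers were 10 and 1, against the same backgrounds of 1.17% and 4.51%. The median log2 ratio per kb was 0.13 in Igh and 0.09 in the T-cell receptor windows. Calls of higher dKO counts per kb were thus not particular to the T-cell receptor loci. Igk held 3 islands in each list and Igl none. No test of the difference between loci was possible with 1 list per genotype.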

How the data were processed

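H3K27ac ChIP-seq was done on 9 samples, 4 WT and 3 dKO with 1 input per genotype. Per the labels and the study's methods, the authors aligned reads to mm9 with Bowtie2 2.2.5, kept uniquely mapped reads, pooled replicates and called islands with SICER 1.1; whether duplicates were removed is not given in the sources used here. The deposited values are counts of reads per island, without normalization, in 1 list per genotype. Islands lie on a 200 bp grid with gaps of at least 600 bp. The restriction to unique reads hides repeated V segments, so the share of 50-base sequences that occur once in mm9 was computed.

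Coordinates were made 1-based, islands merged at 1 bp overlap, and log2 ratios of counts over list totals computed with 95% Wilson intervals (scipy 1.17.1, pandas 2.3.3, numpy 2.4.6, pysam 0.24.0). GENCODE vM1 (mm9) gave segments, and 227 of 234 were named by RefSeq.

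Named in the text were constant genes; per window the 5 regions with most counts, the 3 largest changes each way with at least 100 counts, and the 3 strongest regions of 1 list; and list genes, of which 1 is not reported here. Members and lists were chosen with earlier results of these data known. Alternatives were other scalings, filters, joining, overlap and ratio rules.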

Additional observations from a re-analysis of the deposited data

How the results depend on the processing

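The lists were pooled, with unknown duplicates, no replicate spread and no input, so the 95% intervals understate the error, and V segments of low uniqueness could not be measured. No paired analysis was possible because replicates of a genotype were pooled before island calling. Of 88 recomputed values, 32 stayed within the interval or 1.5 times the value given, 55 moved and 1 called value changed sign; the cause was not tested. Of 37 recomputed log2 ratios, 4 changed sign, all of them per covered kb: Tcra, Tcrb, the Trac region and the regions downstream of Trac, of which only Tcra had reached the 1.5 ratio. Window log2 ratios for Tcra, Tcrb and Tcrg were -0.44, -0.43 and 0.22 per covered kb, 0.57 (short of the 1.5 ratio), 0.21 and 1.08 with islands of at least 3 CPM, 0.71, 0.38 and 1.07 with totals over regions in both lists, and 0.71, 0.38 and 1.07 with median centring; with islands at least 1 kb wide Tcra was 0.62 and Tcrb 0.28. Every covered width stayed within 1.5 times. The Trac region was 0.20 and 0.20 with these 2 scalings and -0.10 per kb. The Trbc1 and Trbc2 region was -0.23, -0.23 and -0.35. The Tcrg-C regions together were 1.04 (0.94 to 1.13) by counts but 0.37 per kb, short of the 1.5 ratio. Per kb the regions downstream of Trac were 0.26. Joining islands within 5 kb left 52 dKO islands in Tcra, 14 WT and 24 dKO islands in Tcrb and 12 WT and 8 dKO islands in Tcrg; 46.2% of the Tcra dKO islands, 100% of the Tcrb and of the Tcrg WT islands and 87.5% of the Tcrg dKO islands were then shared. With 50% reciprocal overlap the shared part was 71.4% of Tcra WT, 23.6% of Tcra dKO, 75.7% of Tcrb WT, 53.8% of Tcrg WT and 37.8% of Tcrg dKO islands. Regions called higher in dKO numbered 16 at a ratio of 2, 6 per kb and 1 per kb at a ratio of 2, and those higher in WT 1, 1 and 0.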
